A study of Mus musculus with 23 samples.

Results

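The small heat shock proteins and muscle chaperones were followed as 10 mouse genes of the 32793 rows in the expression tables of C2C12 cells, a mouse myoblast line that fuses into myotubes when serum is withdrawn. The members were taken by symbol: the small heat shock proteins Cryab, Hspb1, Hspb2, Hspb3, Hspb7 and Hspb8, the myosin assembly factors Unc45b and Smyd1, and the general chaperones Hspa8 and Hsp90aa1. Poly(A) RNA had been sequenced from control cells (here WT) and from cells labelled Runx1KO. Day 0 cells grew in medium with 20% fetal bovine serum, and the others were kept for 1, 3 or 6 days in medium with 2% horse serum, in which they differentiate. Sample titles give day 6 for the last time point and the series text gives 5 days; the titles were followed. The 8 groups held 3 libraries each, except WT day 0 with 2, which made 23 libraries. The labels do not say how the Runx1KO cells were made or whether they are a clone, nor that replicates were separate cultures, so p-values measure the spread between these libraries.

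All 23 libraries were of similar depth, at 22197606 to 23684077 estimated counts, and 3 counts, taken as the floor, were worth 0.126 to 0.140 CPM. CPM are counts scaled by library size and TMM and compare a gene between groups, whereas the deposited TPM are also scaled to transcript length and compare genes. Both scales are relative to total RNA, so fewer cells of a type and less RNA per cell cannot be told apart. Runx1 mRNA went against the genotype label: it stood at 83.95 to 165 CPM in WT and at 117 to 320 CPM in KO-labelled libraries. It was higher in the latter on 4 of 4 days, by 0.35 to 1.02 on the log2 scale, and directions are therefore given for libraries as labelled. Replicate 2 of the day 1 group labelled KO stood apart from its replicates (chi-square per degree of freedom 58.8 and 58.4, against 3.07 to 27.3 for other pairs within groups), and the members' day 1 calls between genotypes are given with and without it. The myoblast and myotube markers summed to 935 to 950 TPM in WT and 1258 to 1296 TPM in KO-labelled libraries on day 0. On day 6 their sums were 1965 to 2168 and 5169 to 6010 TPM. Of 10 such markers, 8 were called higher and 1 lower in KO-labelled libraries on day 6, where 22.0% of all genes were higher and 20.8% lower. Of 4 fibroblast markers tested, 1 was higher and 1 lower, and the 1 immune marker tested was higher. The part of these lists in the results on chaperones was not tested. Markers of adipocytes, bone and cartilage cells, and endothelium summed to at most 1.63 TPM in any library. The fibroblast list summed to 2.07 to 4.35 TPM on day 0 and 36.4 to 68.4 TPM on day 6. The immune list reached 15.3 to 17.4 TPM in day 6 KO-labelled libraries, through Cd68, with Ptprc, Adgre1 and Cd3e at 0 counts there.

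Chaperones hold unfolded or partly folded proteins and release them for folding. Small heat shock proteins do this without ATP and form oligomers, HSP70 and HSP90 work in ATP-driven cycles with cochaperones, and UNC45B and SMYD1 are partners of HSP90 in the folding of muscle myosin. In striated muscle several small heat shock proteins bind at Z-discs, filamin C, actin or desmin and protect them from mechanical and oxidative damage. HSPB8 and the cochaperone BAG3 take damaged filamin to autophagy, and mutations in human CRYAB, HSPB8 and BAG3 cause myopathies.

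Coordinates are from the RefSeq annotation of GRCm38.p6, the assembly that corresponds to mm10. Hspb7 lies at chr4:141420779-141425310, Hspb1 at chr5:135887919-135889563, Hspb8 at chr5:116408491-116422864 and Hspb3 at chr13:113662896-113663676. Unc45b lies at chr11:82911253-82943406, Smyd1 at chr6:71213940-71262281, Hspa8 at chr9:40801276-40805202 and Hsp90aa1 at chr12:110691036-110696395. Hspb2 (chr9:50751072-50752354, minus strand) lies within the span of Cryab (chr9:50745951-50756636, plus strand), in opposite orientation. Their GENCODE gene spans, introns included, share 1030 bases. Reads from the shared stretch cannot be told apart without strand, the use of which is not given in the sources used here. Unc45b and Smyd1 also have annotated genes on the opposite strand within their spans.

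Upstream sequence was read for the 6 members with an entry in the RefSeq promoter table (Hspb1, Hspb3, Hspb7, Hspb8, Unc45b and Smyd1). In the 250 bases before each start, 4 kinds of match were searched on both strands beside a serum response element consensus: RUNX (TGTGGT or TGCGGT), E-box (CANNTG, the site of MyoD-family factors), a heat shock element pair (GAANNTTC or TTCNNGAA) and the MEF2 consensus. Of the 6, 4 are shown: Smyd1 and Unc45b, with the largest genotype differences on days 0 and 6, Hspb1, the small heat shock protein that fell, and Hspb3, whose match lies next to its start. They are printed 5′ to 3′ in the direction of transcription, with the matches in capitals.
Smyd1, chr6:71262282-71262531, minus strand, capitals mark RUNX matches: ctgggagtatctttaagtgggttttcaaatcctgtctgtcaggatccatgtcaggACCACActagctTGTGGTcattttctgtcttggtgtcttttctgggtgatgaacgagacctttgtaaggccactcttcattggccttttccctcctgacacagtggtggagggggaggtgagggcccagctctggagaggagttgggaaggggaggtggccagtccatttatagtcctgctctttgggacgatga
Unc45b, chr11:82911003-82911252, plus strand, capitals mark E-boxes: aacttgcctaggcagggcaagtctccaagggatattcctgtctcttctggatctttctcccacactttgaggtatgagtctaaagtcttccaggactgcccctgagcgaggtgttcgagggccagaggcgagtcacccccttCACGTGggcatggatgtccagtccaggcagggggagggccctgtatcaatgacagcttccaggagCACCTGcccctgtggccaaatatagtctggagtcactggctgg
Hspb1, chr5:135887669-135887918, plus strand, capitals mark heat shock element pairs: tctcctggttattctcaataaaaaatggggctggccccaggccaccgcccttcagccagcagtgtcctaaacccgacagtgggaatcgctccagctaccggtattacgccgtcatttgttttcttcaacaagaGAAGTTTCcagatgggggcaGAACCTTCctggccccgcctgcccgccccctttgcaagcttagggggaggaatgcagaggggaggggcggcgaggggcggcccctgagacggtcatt
Hspb3, chr13:113663677-113663926, minus strand, capitals mark the MEF2 consensus: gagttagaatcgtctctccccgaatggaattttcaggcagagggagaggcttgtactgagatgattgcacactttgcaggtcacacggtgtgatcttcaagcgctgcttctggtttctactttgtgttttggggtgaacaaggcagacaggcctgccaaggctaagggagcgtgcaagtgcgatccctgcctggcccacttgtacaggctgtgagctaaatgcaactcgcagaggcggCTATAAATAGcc

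Smyd1 was the only one of the 6 with a RUNX match, ACCACA 195 bases and TGTGGT 183 bases before its start. At least 1 such match was present in 18.6% and at least 2 in 2.01% of the 32851 windows of this length in the table. Unc45b held the E-boxes CACGTG and CACCTG, 108 and 43 bases before the start, and 31.8% of windows held at least 2 matches to CANNTG. Hspb1 held GAAGTTTC and GAACCTTC, 117 and 97 bases before the start, and 1.46% of windows held at least 2 such pairs. Its window also had the E-boxes CATTTG and CAGATG, 138 and 109 bases before the start. Hspb3 held CTATAAATAG 12 bases before its start, a match found in 0.508% of windows. Its window also had E-boxes 76 and 54 bases and the pair GAATTTTC 224 bases upstream. Hspb7 and Hspb8 each had 1 E-box, CATCTG 17 bases and CAGTTG 132 bases before the start, and none of the 6 windows matched the serum response element. These are matches of letters, not binding sites.

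Between KO-labelled libraries and WT, differences of the members were all towards higher mRNA wherever they passed the test. A gene is called where its Benjamini-Hochberg adjusted p, over 14187 genes in the quasi-likelihood test of edgeR, was under 0.05. On day 0, 4 of the 10 members were higher and 0 lower, where 17.5% of all genes were called, 7.36% higher and 10.1% lower. The members called higher numbered 6 on day 1, 8 on day 3 and 8 on day 6, with none lower. Of all genes, 42.2%, 43.2% and 42.9% were called on those days: 22.9%, 24.0% and 22.0% higher and 19.2%, 19.2% and 20.8% lower. The median log2 fold change (log2FC) of the members was 0.47, 0.46, 0.79 and 1.48 on days 0, 1, 3 and 6, beside -0.00, 0.03, 0.04 and 0.00 over all genes; on day 0 Unc45b entered at 0, having no counts. With each library left out in turn, the counts ran from 3 to 6, 5 to 7, 7 to 10 and 8 to 8. The summed myoblast and myotube markers were higher in KO-labelled libraries without overlap on days 0, 3 (3163 to 4566 against 2111 to 2159 TPM) and 6, and overlapped on day 1 (1243 to 1496 against 1256 to 1341 TPM).

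**Figure D1:**
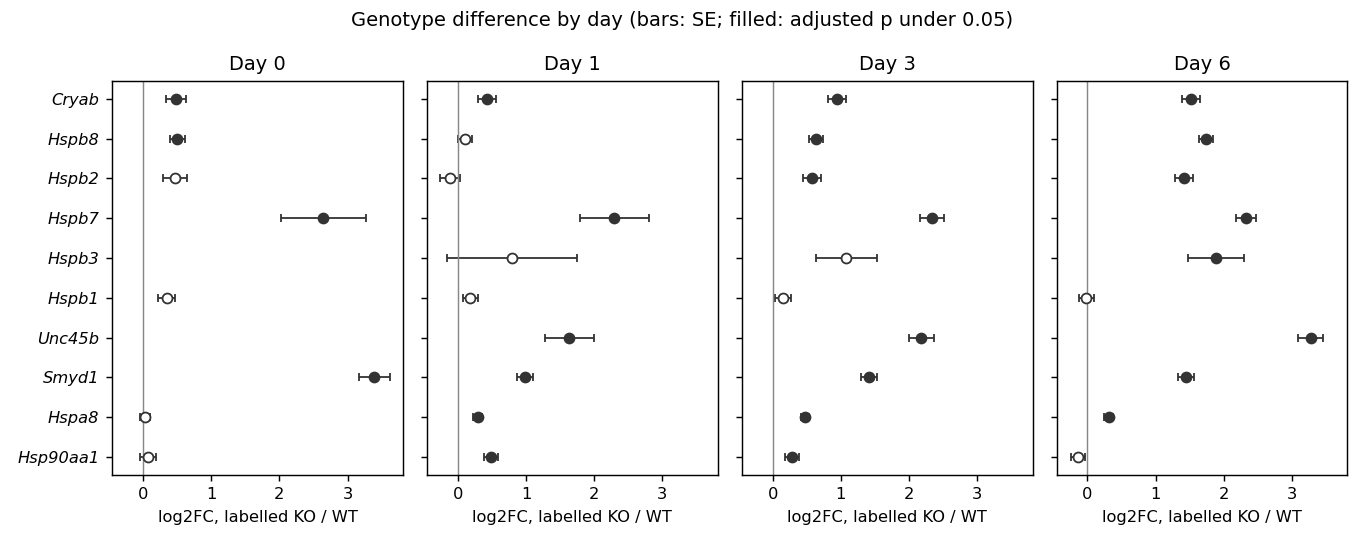
Log2FC between KO-labelled libraries and WT (x axis) for each member (y axis) on each day, with bars for the standard error and filled points for an adjusted p under 0.05. Unc45b and Hspb3 are left out on day 0 because they had 0 or 1 count per library; Smyd1 has the highest point on day 0 (3.39) and Unc45b on day 6 (3.27), while Hspb1 and Hsp90aa1 have open points on day 6.

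Cryab encodes αB-crystallin, a small heat shock protein of the Z-disc and desmin filaments. In WT its level was 108 and 126 CPM on day 0, then 87.4, 84.2 and 90.8 CPM on day 1, 99.7, 91.2 and 96.9 CPM on day 3, and 118, 107 and 85.7 CPM on day 6. In KO-labelled libraries it was 155, 166 and 168 CPM on day 0, 135, 92.9 and 125 CPM on day 1, 201, 171 and 180.2 CPM on day 3, and 237, 314 and 334 CPM on day 6. Each KO-labelled library was above each WT library of its day, and on days 0, 3 and 6 also above every WT library of any day. The log2FC between genotypes was 0.48 on day 0 (SE 0.15, adjusted p = 0.0244), 0.43 on day 1 (SE 0.13, adjusted p = 0.0108), 0.94 on day 3 (SE 0.13, adjusted p = 3.11e-06), followed by 1.51 on day 6 (SE 0.13, adjusted p = 1.87e-09). The day 0 call was lost without replicate 2 (0.47) or 3 (0.45) of the group labelled KO or replicate 1 of WT (0.37). The day 1 call was lost without replicate 1 of the group labelled KO (0.31) and with the day 1 groups alone in the model (0.41, adjusted p = 0.0507), and the day 1 log2FC was 0.59 without replicate 2 (adjusted p = 0.000392).

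Over time the course of Cryab differed between the genotypes. In WT it was lower on day 1 than on day 0 (log2FC -0.42, adjusted p = 0.0166, lost without replicate 2 of WT day 0 at -0.31) and its day 6 value against day 0 was -0.18 (SE 0.14, adjusted p = 0.286). In KO-labelled libraries it fell by 0.47 on the log2 scale on day 1, rose by 0.65 from day 1 to day 3 and by 0.68 from day 3 to day 6, and ended 0.86 above day 0 (SE 0.13, adjusted p = 2.87e-06). Without replicate 2 of day 1, that fall was -0.31 (adjusted p = 0.0325) and the rise to day 3 was 0.50 (adjusted p = 0.00323). The change from day 0 to day 6 was larger in KO-labelled libraries by 1.03 (SE 0.19, interaction adjusted p = 0.000551). On day 3 the same difference was 0.46 (SE 0.19, adjusted p = 0.141), and 0.47 (adjusted p = 0.0451) without replicate 2 of the day 1 group labelled KO. In the order of group means, WT day 3 overlapped WT day 6 in range, WT day 6 overlapped WT day 0 and WT day 0 overlapped labelled KO day 1, whereas labelled KO days 0, 3 and 6 each stood clear of the group below.

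Hspb8, the small heat shock protein that works with BAG3 in the removal of damaged filamin, took a course like that of Cryab. WT libraries had 105 and 106 CPM on day 0, 82.1, 80.0 and 81.9 CPM on day 1, 89.0, 81.3 and 87.3 CPM on day 3, and 115, 101 and 99.05 CPM on day 6. KO-labelled libraries had 144, 148 and 159 CPM on day 0, 95.2, 75.1 and 92.7 CPM on day 1, 143, 119 and 138 CPM on day 3, and 293, 382 and 378 CPM on day 6. The genotypes overlapped on day 1 and stood apart on the other days. The genotype log2FC was 0.50 on day 0 (SE 0.11, adjusted p = 0.00251), 0.11 on day 1 (SE 0.10, adjusted p = 0.409), 0.64 on day 3 (SE 0.10, adjusted p = 1.71e-05), followed by 1.74 on day 6 (SE 0.10, adjusted p = 2.03e-12). Without replicate 2 of the day 1 group labelled KO, the day 1 value was 0.23 (adjusted p = 0.0571). In that genotype Hspb8 fell by 0.78 on day 1 (-0.66 without that library) and rose by 1.39 from day 3 to day 6, to 1.23 above day 0 (adjusted p = 1.55e-10). In WT it was lower on day 1 (-0.38, adjusted p = 0.00602), and its day 6 difference from day 0 was smaller than its standard error of 0.11. The interaction on day 6 was 1.23 (SE 0.15, adjusted p = 2.59e-06). Over the 8 group means the log2 CPM of Cryab and Hspb8 had a Pearson r of 0.95, as a description of groups that share their libraries.

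Hspb2, a partner of HSPB3 that is found mainly in muscle, lies within the Cryab span and rose in WT, where Cryab on day 6 was not called against day 0. Whether reads from the shared stretch were counted for the right gene cannot be told. The Hspb2 values, their calls and the ratio to Cryab carry this limit. WT values were 6.42 and 5.70 CPM on day 0, 11.5, 11.6 and 11.0 CPM on day 1, 17.1, 16.4 and 18.0 CPM on day 3, and 15.04, 20.1 and 15.3 CPM on day 6. Values in KO-labelled libraries were 8.12, 8.78 and 8.30 CPM, then 11.3, 7.997 and 12.2 CPM, then 29.5, 20.6 and 26.5 CPM, and 42.4, 45.9 and 46.7 CPM on day 6. From day 3 to day 6 Hspb2 rose by 0.82 in KO-labelled libraries (SE 0.13, adjusted p = 1.98e-05), and in WT the difference was smaller than its standard error of 0.14. Against day 0 the day 6 log2FC was 1.47 in WT (SE 0.17, adjusted p = 8.58e-08) and 2.42 in KO-labelled libraries (SE 0.14, adjusted p = 3.91e-13), and the interaction was 0.95 (SE 0.22, adjusted p = 0.00417). Between genotypes the log2FC was 0.57 on day 3 (SE 0.13, adjusted p = 0.00124), followed by 1.42 on day 6 (SE 0.13, adjusted p = 6.48e-09). The day 0 value of 0.47 missed the threshold (adjusted p = 0.0692) though the ranges did not overlap, and passed without replicate 2 of the groups labelled KO on day 1 (adjusted p = 0.0262) or day 3 (adjusted p = 0.0463) or WT day 6 replicate 2 (adjusted p = 0.0325). It also passed under 5 of the 9 other settings: no filter (adjusted p = 0.048), DESeq2 (adjusted p = 0.0391), limma on log2(TPM + 1) (adjusted p = 0.0476) or log2(TPM + 0.1) (adjusted p = 0.0408), and only the day 0 groups in the model (adjusted p = 0.0195). On day 1 the genotype difference was smaller than its standard error of 0.14. The rise of Hspb2 by day 1 was called in WT (0.90, adjusted p = 0.000101). In KO-labelled libraries the value was 0.32 (adjusted p = 0.0738), and 0.50 (adjusted p = 0.00399) without replicate 2 of day 1. The Cryab to Hspb2 ratio of TPM went from 11.1 ± 1.92 (SD, n = 2) to 4.11 ± 0.983 (SD, n = 3) between days 0 and 6 in WT, and from 11.2 ± 0.442 to 4.99 ± 0.739 (SD, n = 3 each) in KO-labelled libraries.

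Hspb3, a small muscle protein that pairs with HSPB2, had the lowest TPM of the 6 small heat shock proteins followed here on days 3 and 6. It had 0 or 1 count in each of the 5 day 0 libraries and 1 to 4 counts on day 1. WT libraries had 18, 13 and 7 counts on day 3 and 24, 11 and 9 on day 6, whereas KO-labelled libraries had 37, 12 and 29 and then 53, 63 and 46. Summed over libraries, day 6 exceeded day 1 by a ratio of 11.1 in WT (95% exact interval 4.05 to 42.7, counting error only) and 22.98 in KO-labelled libraries (10.9 to 58.1). The genotype log2FC was 1.89 on day 6 (SE 0.41, adjusted p = 0.000793), with no overlap between 0.377 to 1.03 CPM in WT and 2.00 to 2.71 CPM in KO-labelled libraries. On day 3 the genotypes overlapped and the value was 1.08 (SE 0.44, adjusted p = 0.0533). It passed the threshold without replicate 2 of its group labelled KO (1.43, adjusted p = 0.0116) or replicate 1 of WT (1.42, adjusted p = 0.0358). It also passed without replicate 2 of the day 1 group labelled KO (adjusted p = 0.0411) or WT day 6 replicate 1 (adjusted p = 0.0411) or 3 (adjusted p = 0.0453).

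Hspb7, a heart and muscle small heat shock protein that binds filamin C and actin filaments, had the largest log2FC over time of the 5 small heat shock proteins with more than 1 count on day 0. In WT it had 3 or 4 counts on day 0 and 2 to 8 on day 1, then 5.31, 4.59 and 5.77 CPM on day 3 and 43.1, 30.8 and 37.7 CPM on day 6. In KO-labelled libraries it had 16 to 27 counts on day 0 and 18 to 26 on day 1, then 33.2, 21.6 and 24.8 CPM on day 3 and 150.3, 203 and 206 CPM on day 6. The genotypes did not overlap on any day. Their log2FC was 2.64 on day 0 (SE 0.62, adjusted p = 0.00401), 2.29 on day 1 (SE 0.51, adjusted p = 0.000841), 2.34 on day 3 (SE 0.18, adjusted p = 2.77e-10), followed by 2.32 on day 6 (SE 0.15, adjusted p = 1.19e-11). The day 0 value rests on 66 against 7 counts in all, a ratio of 6.43 with a 95% exact interval of 2.95 to 16.6, and the day 1 value on 68 against 14, a ratio of 5.01 (2.79 to 9.64). Without replicate 2 of the group labelled KO, the day 1 value was 2.49 (adjusted p = 0.00219). From day 3 to day 6 Hspb7 rose by 2.83 in WT (SE 0.17, adjusted p = 7.52e-10) and 2.81 in KO-labelled libraries (SE 0.15, adjusted p = 1.38e-11). In WT it was the 1 member called higher on day 6 than on day 3. Hspb8 missed there (0.29, adjusted p = 0.0677) and was called under 7 of the 9 other settings (0.30 to 0.32). It was also called without replicate 2 of day 1 (adjusted p = 0.0209) or replicate 1 of day 6 (adjusted p = 0.0346) of the groups labelled KO. The day 6 interaction was -0.32 (SE 0.69, adjusted p = 0.845), an error too wide to show whether the rises differed.

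Hspb1, encoding HSP27 (HSP25 in mice), which binds actin filaments and is present in most cell types, fell in both genotypes. WT libraries had 492 and 544 CPM on day 0, 346, 347 and 375 CPM on day 1, 282, 265 and 277 CPM on day 3, and 256, 278 and 227 CPM on day 6. KO-labelled libraries had 621, 654 and 703 CPM on day 0, 460.0, 298 and 457 CPM on day 1, 304, 306 and 306 CPM on day 3, and 231, 256 and 267 CPM on day 6. The day 6 log2FC against day 0 was -1.03 in WT (SE 0.12, adjusted p = 1.66e-07) and -1.39 in KO-labelled libraries (SE 0.11, adjusted p = 1.91e-10). The interaction was -0.36 (SE 0.17, adjusted p = 0.184), and -0.35 (adjusted p = 0.0205) without replicate 2 of the day 1 group labelled KO.

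Between genotypes Hspb1 passed the test on none of the 4 days. Values were 0.35 on day 0 (SE 0.13, adjusted p = 0.0626), 0.18 on day 1 (SE 0.11, adjusted p = 0.198), then 0.15 on day 3 (SE 0.11, adjusted p = 0.289). The day 6 difference was smaller than its standard error of 0.11. Ranges of the genotypes overlapped on days 1 and 6 and not on days 0 and 3. Without replicate 2 of the day 1 group labelled KO, days 0, 1 and 3 passed, at 0.35 (adjusted p = 0.00176), 0.39 (adjusted p = 0.000323) and 0.17 (adjusted p = 0.049). Day 0 also passed without replicate 1 of that group (adjusted p = 0.0477) and without WT day 6 replicate 2 (adjusted p = 0.0367) or 3 (adjusted p = 0.0494). Of the 9 other settings, 4 called it as well: RLE size factors (adjusted p = 0.0466), no filter (adjusted p = 0.0251), DESeq2 (adjusted p = 0.0286) and only the day 0 groups in the model (adjusted p = 0.0036).

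**Figure D2:**
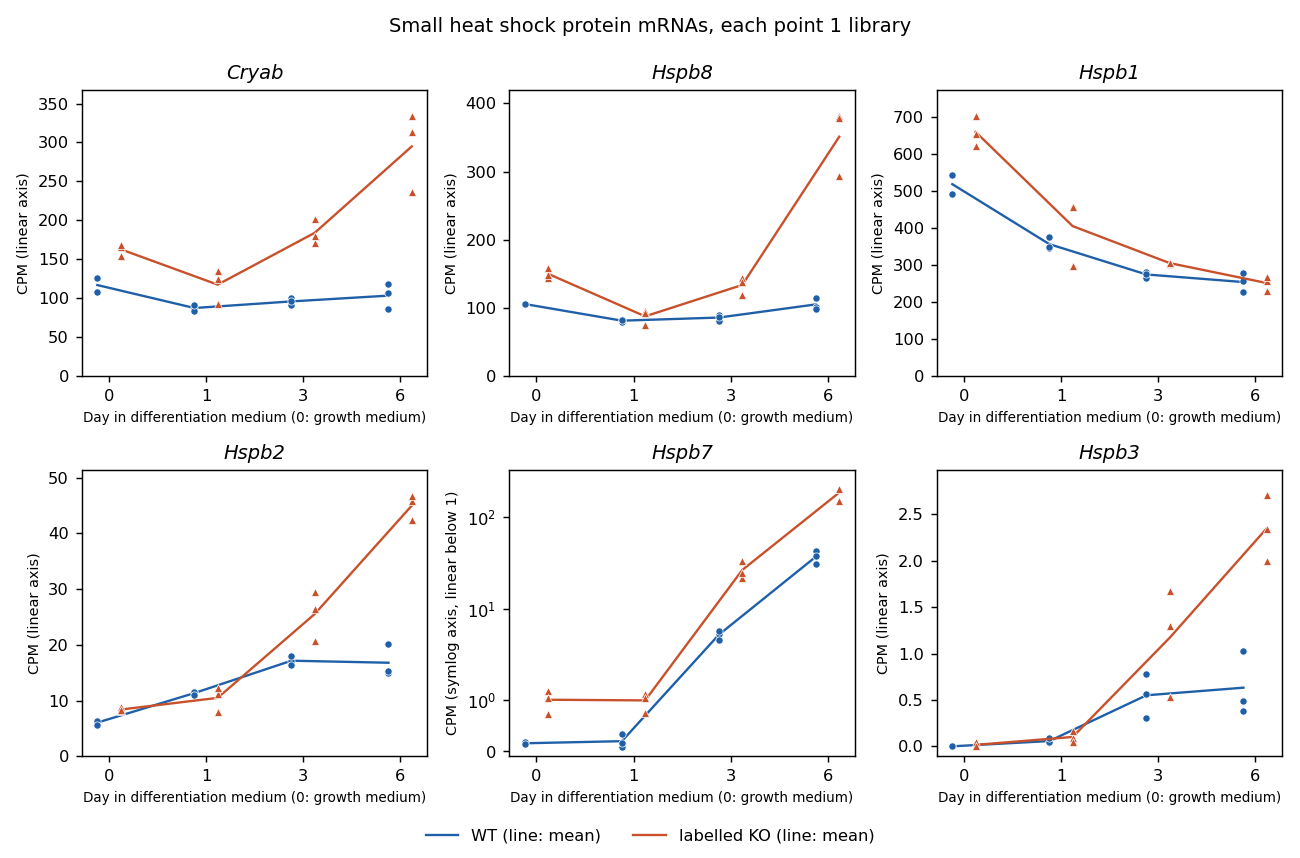
CPM of the 6 small heat shock proteins in each of the 23 libraries (points) with group means (lines) against the day, whose steps are drawn evenly; the axis is linear except for Hspb7, where it is logarithmic above 1 CPM. Hspb1 falls in both genotypes, Cryab and Hspb8 dip on day 1 and reach 237 to 334 and 293 to 382 CPM on day 6 in KO-labelled libraries, and Hspb7 rises in both.

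The make-up of small heat shock protein mRNA differed between days and genotypes, and is given as a description with no test. With Hspb6 added, the 7 genes summed to 1551 ± 50.8 TPM (SD, n = 2) on day 0 and 1115 ± 28.5 TPM (SD, n = 3) on day 6 in WT. The sums were 1956 ± 93.4 and 1879 ± 166 TPM (SD, n = 3 each) in KO-labelled libraries. Hspb1 made up 72.4% of this sum on day 0 and 56.1% on day 6 in WT, and 70.0% and 30.2% in KO-labelled libraries. Cryab went from 15.02% to 21.2% in WT and from 16.1% to 34.1% in KO-labelled libraries, and Hspb8 from 6.42% to 10.1% and from 6.92% to 18.2%. Hspb7 was 2.25% in WT and 6.05% in KO-labelled libraries on day 6. The ratio of Cryab to Hspb1 TPM went from 0.207 ± 0.00575 (SD, n = 2) to 0.379 ± 0.0478 (SD, n = 3) in WT, and from 0.230 ± 0.00571 to 1.13 ± 0.131 (SD, n = 3 each) in KO-labelled libraries. On day 6 that ratio ran from 0.349 to 0.434 in WT and from 0.984 to 1.23 in KO-labelled libraries, with no overlap. Hspb6 (HSP20) fell from day 0 to day 6 in WT (log2FC -0.61, adjusted p = 0.00369) and was higher in KO-labelled libraries on day 6 (0.66, adjusted p = 0.00127), its share staying between 4.26% and 5.64% of the sum.

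**Figure D3:**
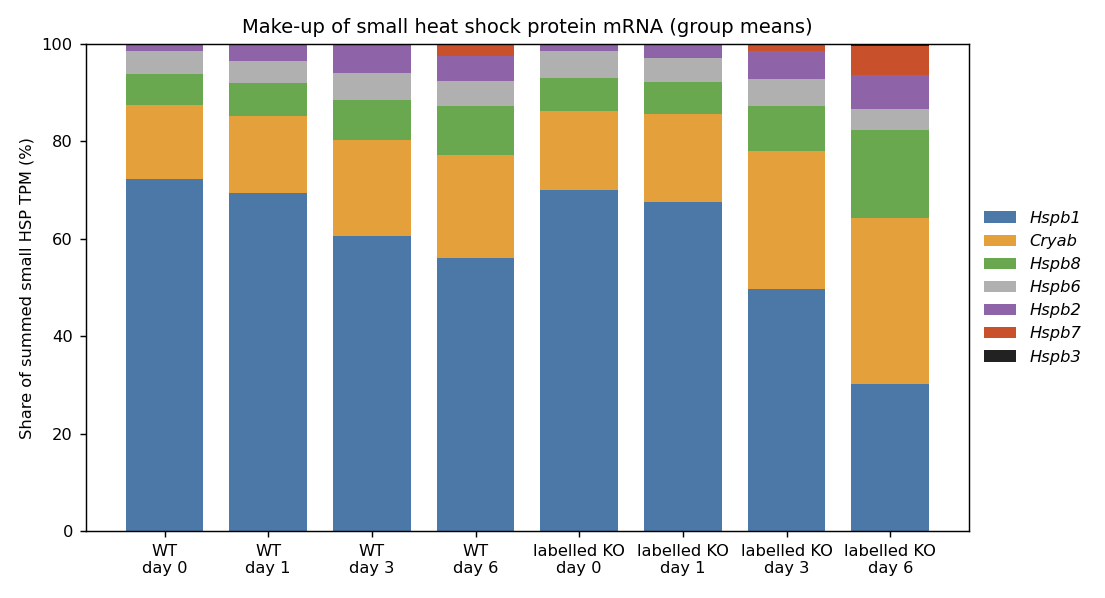
Share (%) of each gene in the summed TPM of 7 small heat shock proteins, as means of 2 or 3 libraries per group. Hspb1 is the largest share in every group except labelled KO day 6, where Cryab (34.1%) exceeds it (30.2%).

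Unc45b, the muscle form of the UNC45 myosin chaperone, went from undetected to measurable in differentiation medium. It had 0 counts in all 5 day 0 libraries, below the floor of 3 counts. WT libraries then had 0.765, 0.382 and 0.683 CPM on day 1, 9.10, 8.32 and 8.98 CPM on day 3, and 8.72, 8.16 and 9.23 CPM on day 6. KO-labelled libraries had 1.89, 1.67 and 2.15 CPM on day 1, 57.5, 30.0 and 32.2 CPM on day 3, and 77.3, 86.3 and 89.1 CPM on day 6. No WT library reached a KO-labelled library of the same day. Day 6 was at least 64.3-fold higher than day 0 in WT and at least 608-fold higher in KO-labelled libraries, each against the floor per library. The genotype log2FC grew from 1.63 on day 1 (SE 0.36, adjusted p = 0.00112) to 2.18 on day 3 (SE 0.18, adjusted p = 7.39e-09), followed by 3.27 on day 6 (SE 0.19, adjusted p = 1.26e-11), where the fold was 9.67. The day 1 value was 1.74 without replicate 2 of the group labelled KO (adjusted p = 0.00365). From day 3 to day 6 Unc45b rose by 1.08 in KO-labelled libraries (SE 0.17, adjusted p = 2.38e-05), and in WT the difference was smaller than its standard error of 0.19. Its ubiquitous relative Unc45a, also named with its values seen, was 16.2 TPM in WT and 12.1 TPM in KO-labelled libraries on day 6. The Unc45b to Unc45a ratio of TPM was then 0.295 ± 0.0270 and 3.50 ± 0.167 (SD, n = 3 each).

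Smyd1, a muscle-restricted lysine methyltransferase that binds HSP90 and myosin, carried the largest genotype difference of any member on day 0. WT had 0.704 and 1.06 CPM (16 and 23 counts) and KO-labelled libraries had 9.26, 8.73 and 9.92 CPM (187 to 214 counts). On day 1 the values were 17.9, 15.9 and 21.6 CPM in WT against 33.1, 39.4 and 36.9 CPM. On day 3 they were 34.6, 31.9 and 29.8 against 99.5, 82.1 and 75.1 CPM, and on day 6 they were 26.6, 30.3 and 29.2 against 71.0, 83.7 and 79.6 CPM. The genotypes did not overlap on any day. The log2FC was 3.39 on day 0 (SE 0.23, adjusted p = 8.91e-11), 0.98 on day 1 (SE 0.12, adjusted p = 4.97e-07), 1.41 on day 3 (SE 0.11, adjusted p = 6.37e-10), followed by 1.44 on day 6 (SE 0.11, adjusted p = 3.1e-10). Without replicate 2 of the group labelled KO, day 1 was 0.95 (adjusted p = 1.82e-06). Smyd1 rose from day 0 to day 6 by 5.02 in WT (SE 0.21, adjusted p = 4.29e-15) and by 3.07 in KO-labelled libraries (SE 0.12, adjusted p = 5.72e-16). The interaction was therefore negative, at -2.41 on day 1, -1.98 on day 3 and -1.95 on day 6 (SE 0.27 each, adjusted p = 1.84e-05, 1.96e-05 and 1.53e-05), and these share the day 0 libraries. The day 1 value was -2.45 without replicate 2 of the group labelled KO. On the linear scale the gain to day 6 was 27.8 CPM in WT and 68.8 CPM in KO-labelled libraries, the opposite order. The day 6 against day 3 values of -0.16 in WT (adjusted p = 0.44) and -0.13 in KO-labelled libraries (adjusted p = 0.352) were not called. The Smyd1 sequence printed above holds a pair of RUNX matches, whose part in these differences was not tested.

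Hspa8 encodes HSC70, the constitutive HSP70 of most cells, and was the most abundant member. Its TPM on day 0 was 2404 ± 63.9 (SD, n = 2) in WT and 2350.1 ± 111 (SD, n = 3) in KO-labelled libraries, above Hspb1 (1123 and 1370.1 TPM) and Cryab (233 and 315 TPM). By library, WT had 2877 and 3137 CPM on day 0, 1769, 1649.8 and 1787 CPM on day 1, 1877, 1847 and 1743 CPM on day 3, and 1531, 1671 and 1525 CPM on day 6. The KO-labelled libraries had 2861, 3139 and 3187 CPM, then 2086, 2166 and 2112 CPM, then 2584, 2422 and 2581 CPM, and 1997, 1958 and 1921 CPM on day 6. Hspa8 fell from day 0 to day 6 by 0.93 in WT (SE 0.07, adjusted p = 6.19e-11) and by 0.65 in KO-labelled libraries (SE 0.06, adjusted p = 3.93e-09). The genotypes overlapped on day 0, where the difference was smaller than its standard error of 0.07. They stood apart afterwards, at 0.29 on day 1 (adjusted p = 0.000765), 0.47 on day 3 (adjusted p = 2.03e-06), followed by 0.31 on day 6 (adjusted p = 0.000305), with an SE of 0.06 each. The day 1 value was 0.30 without replicate 2 of the group labelled KO. The interaction passed at 0.45 (SE 0.09, adjusted p = 0.0026) on day 3, and at 0.29 (SE 0.09, adjusted p = 0.0464) on day 6. The day 6 call was lost under 6 of 9 other settings and on leaving out any 1 of 16 of the 23 libraries, among them replicate 2 of WT day 0 (0.22, adjusted p = 0.255).

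Hsp90aa1, the stress-inducible cytosolic HSP90 with a known role in folding muscle myosin, also fell in both genotypes. WT had 1314 and 1408 CPM on day 0, 549, 555 and 616 CPM on day 1, 606, 600.5 and 590.0 CPM on day 3, and 501, 531 and 520 CPM on day 6. The KO-labelled libraries had 1406, 1423 and 1481 CPM on day 0, 695, 1035 and 682 CPM on day 1, 682, 744 and 756 CPM on day 3, and 465, 481 and 469 CPM on day 6. From day 0 to day 6 it fell by 1.40 in WT (SE 0.11, adjusted p = 2.98e-10) and by 1.61 in KO-labelled libraries (SE 0.11, adjusted p = 3.79e-12). Most of the WT fall was present on day 1 (-1.25, adjusted p = 3.27e-09). Between genotypes the log2FC was 0.49 on day 1 (SE 0.10, adjusted p = 0.000621). It was 0.29 (adjusted p = 0.000664) without the day 1 library at 1035 CPM and missed the threshold when the model held the day 1 groups alone (adjusted p = 0.0586). The day 3 value of 0.28 (SE 0.10, adjusted p = 0.0323) was lost under 6 of 9 other settings, down to 0.13 on log2(TPM + 1). It was also lost without replicate 2 (0.26) or 3 (0.25) of the group labelled KO, without any of the 3 WT libraries (0.29, 0.29 and 0.27) and without WT day 6 replicate 2 (0.24). On day 6 the value was -0.13 (SE 0.10, adjusted p = 0.323), and KO-labelled libraries lay below WT without overlap. Hspa8 and Hsp90aa1 both have processed pseudogenes, and reads shared with such copies may have been split by the authors' estimation.

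**Figure D4:**
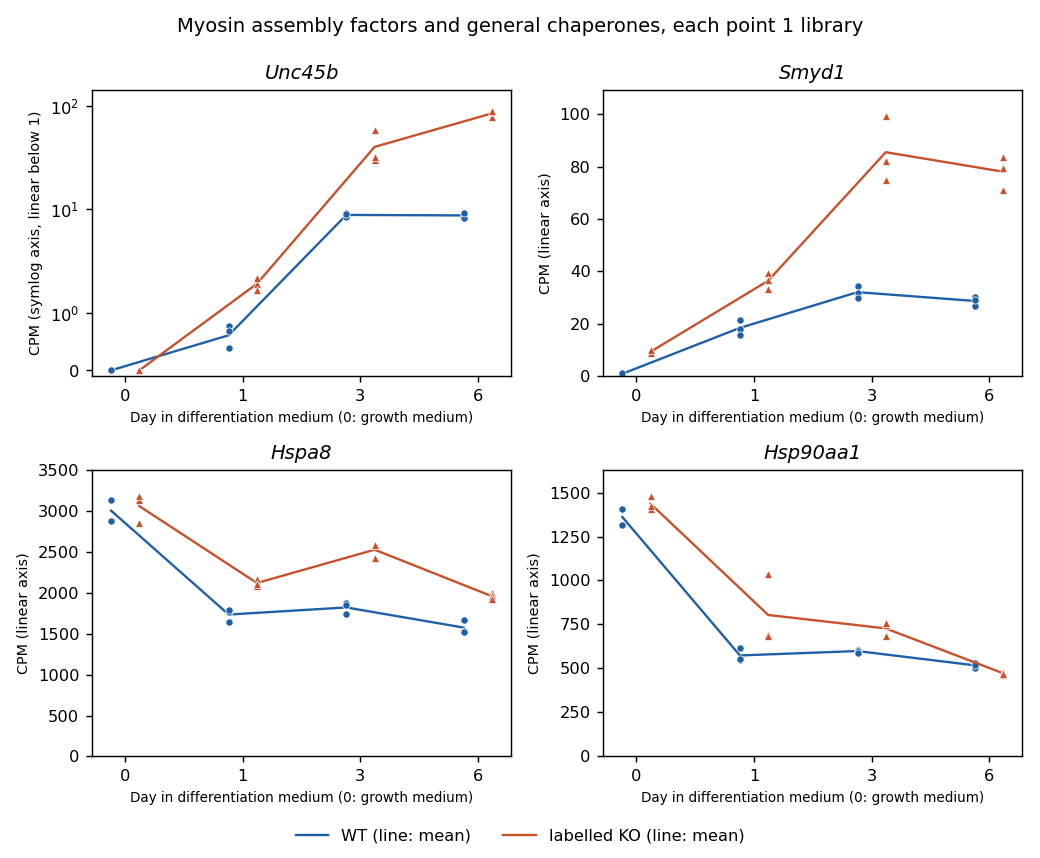
CPM of Unc45b, Smyd1, Hspa8 and Hsp90aa1 in each of the 23 libraries (points) with group means (lines) against the day, whose steps are drawn evenly; the Unc45b axis is logarithmic above 1 CPM and the others are linear. Unc45b and Smyd1 rise and are higher in KO-labelled libraries, Smyd1 from day 0 and Unc45b from day 1. Hspa8 lies at 2861 to 3187 CPM on day 0 and at 1525 to 1997 CPM on day 6. Between days 1 and 3 it rises in KO-labelled libraries. Hsp90aa1 lies at 1314 to 1481 CPM on day 0 and at 465 to 531 CPM on day 6.

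Changes from day 0 to day 1 were called for 8 of the 10 members in WT and 7 in KO-labelled libraries. In WT 3 rose (Hspb2, Smyd1 and Unc45b, the last not called with limma on log2(TPM + 1), adjusted p = 0.0544) and 5 fell (Cryab, Hspb1, Hspb8, Hspa8 and Hsp90aa1), where 54.7% of all genes were called, 27.1% higher and 27.6% lower. In KO-labelled libraries 2 rose and the same 5 fell, where 52.3% of all genes were called, 27.2% higher and 25.2% lower. Without replicate 2 of that day 1 group 8 members were called, with Hspb2 added. On day 3 against day 0 the counts were 5 higher and 4 lower in WT (58.2% of all genes called, 29.2% higher, 29.0% lower) and 5 higher and 3 lower in KO-labelled libraries (57.6% called, 30.4% higher, 27.2% lower). Of the 4 in WT, Hspb8 (-0.30, adjusted p = 0.0246) was not called without WT day 0 replicate 1 (-0.32) or 2 (-0.29), WT day 3 replicate 2 (-0.26) or WT day 6 replicate 2 (-0.26). Scaling by library size alone (-0.24) ended this call too, as did limma on log2(TPM + 1) and log2(TPM + 0.1) (-0.13 each).

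From day 0 to day 6, 5 of the 10 members rose and 3 fell in WT, and 7 rose and 3 fell in KO-labelled libraries. Of all genes, 63.6% were called in WT (32.6% higher, 31.1% lower) and 70.0% in KO-labelled libraries (36.6% higher, 33.5% lower). Hspb2, Hspb3, Hspb7, Unc45b and Smyd1 rose in both genotypes and Hspb1, Hspa8 and Hsp90aa1 fell in both. Cryab and Hspb8 rose in KO-labelled libraries and were not called in WT.

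From day 1 to day 3, 5 members rose and Hspb1 fell in WT (19.7% of all genes called, 11.0% higher, 8.68% lower). In KO-labelled libraries Cryab, Hspb8 and Hspa8 rose too, for 8 higher and 1 lower (26.7% called, 15.5% higher, 11.2% lower). The Hspb1 call of this step was lost in WT without replicate 3 of day 1 (-0.34) or replicate 2 (-0.35) or 3 (-0.38) of day 3. In KO-labelled libraries it was lost without replicate 1 or 3 of day 1 (-0.31 each) and with the groups compared alone in the model (-0.44). The Hspa8 call in KO-labelled libraries was lost in that model (0.22) and with limma on log2(TPM + 1) and log2(TPM + 0.1) (0.18 each). From day 3 to day 6, 2 members were called in WT, Hspb7 higher and Hspa8 lower, where 9.79% of all genes were called, 4.87% higher and 4.92% lower. In KO-labelled libraries 8 members were called, 6 higher and 2 lower, where 41.3% of all genes were called, 20.2% higher and 21.2% lower. Of the 6, Hspb3 (1.00, adjusted p = 0.0428) was not called without replicate 2 (0.66) or 3 (1.09) of the day 3 group or any of replicates 1 (1.01), 2 (0.89) and 3 (1.11) of the day 6 group, nor with DESeq2 (adjusted p = 0.0601). The Hspa8 call in WT was lost under 6 of the 9 other settings. The WT count was 1 without replicate 1 or 2 of WT day 3 or replicate 1 or 3 of WT day 6, and 4 without replicate 2 of the day 1 group labelled KO.

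A difference between genotypes in the change from day 0 was called for Smyd1 on day 1, where 3.95% of all genes were called, 2.64% positive and 1.31% negative. The count was 2 without replicate 3 of the day 1 group labelled KO. On day 3 it was called for Hspa8 (positive) and Smyd1 (negative), where 10.7% were called, 6.65% positive and 4.06% negative. On day 6 it was called for 5 members, positive for Cryab, Hspb2, Hspb8 and Hspa8 and negative for Smyd1, where 13.0% were called, 7.54% positive and 5.42% negative. For Unc45b and Hspb3 it could not be determined, since their day 0 libraries held 0 or 1 count each.

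Other genes with patterns like the members' were listed by the Pearson r of log2 CPM over the 8 group means, among 11160 genes with a group mean of at least 5 CPM. Unc45b was closest to Ckm, the muscle creatine kinase (r = 0.995), Srpk3 and Hrc. Smyd1 was closest to Synpo2l (r = 0.992), Tm2d1 and Dusp27, and Hspb3 to Gm14635 (r = 0.998), Srl and Mb, which encodes myoglobin. Hspb7 was closest to Clic5 (r = 0.992), Srp14 and Rpl38, and Hspb2 to Erbb3 (r = 0.996), Zim1 and Pik3c2b. Cryab was closest to Itga6 (r = 0.987), Sergef and Naca, and Hspb8 to Dgat2 (r = 0.992), Dnaja3 and Atp2a2, the calcium pump of the sarcoplasmic reticulum. The falling members were closest to other genes: Hspb1 to Pus10 (r = 0.993), Arpc4 and Ankrd52, Hspa8 to AK220016 (r = 0.997), Gmeb1 and Shmt1, and Hsp90aa1 to Set (r = 0.997), Mcmbp and Skiv2l2. Among the members, r was 0.97 for Hspb2 with Hspb3 and for Hspb3 with Unc45b, 0.94 for Hspb1 with Hsp90aa1 and 0.91 for Hspa8 with Hsp90aa1, against -0.90 for Hspb1 with Unc45b. With 8 points and groups that share libraries, these values are a description.

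Counts of called genes in lists of other chaperones stand against 22.0% of all genes higher and 20.8% lower between genotypes on day 6, and 32.6% higher and 31.1% lower in WT from day 0 to day 6. Of 18 HSP90 family genes and cochaperones, 5 were higher and 4 lower in KO-labelled libraries on day 6, near the share of all genes, with a median log2FC of 0.13. On day 3, 10 of the 18 were higher and none lower, where 24.0% of all genes were higher and 19.2% lower. Day 3 calls are given for this list alone, and no list was followed under other settings. The day 3 median log2FC of all genes was 0.04, and -0.08 and -0.11 with limma on log2(TPM + 1) and log2(TPM + 0.1). Itgb1bp2 (melusin), a muscle HSP90 partner, had the largest difference of the list: it was 5.33 ± 0.0408 CPM in WT and 127 ± 21.7 CPM in KO-labelled libraries on day 6 (SD, n = 3 each), a log2FC of 4.58 (SE 0.19, adjusted p = 4.37e-15). Fkbp5 and Sugt1 were lower (-0.54 and -0.40). In WT 12 of the 18 fell from day 0 to day 6, among them Ppid (-1.32) and Fkbp4 (-1.17), and 1 rose, Itgb1bp2, from 0 and 2 counts to 120 to 128 counts. Of 14 HSP70 genes besides Hspa8, 3 were higher and 2 lower on day 6, including Hsph1 (0.41), Hspa2 (-0.47) and Hspa1b (-0.85), whose reads may be shared with the near-identical Hspa1a. From day 0 to day 6 in WT, 2 of the 14 rose, among them Hspa2 (0.86), and 8 fell, among them Hsph1 (-1.36) and Hspa14 (-1.18). The 12 HSP40 genes split 4 higher and 3 lower on day 6, with Dnajb5 (0.77) and Dnaja3 (0.72) highest and Dnajb14 (-0.49) lowest. In WT over time 5 of them rose, including Dnajb5 (0.95) and Dnajb2 (0.60), and 5 fell, including Dnaja1 (-1.09).

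The chaperonin TRiC and prefoldin, which fold actin and tubulin, had 4 genes higher and 2 lower of 14 on day 6, with Cct5 at 0.42 and Pfdn6 and Pfdn5 at -0.33 each. In WT 11 of the 14 fell over time, Cct3 and Cct6a by 1.35 each and Cct8 by 1.01. On day 3, for which calls of this list are not given, Cct3, Cct5, Cct6a and Cct8 were higher in KO-labelled libraries without overlap in CPM. The day 3 ranges of Pfdn5 and Pfdn6 overlapped between genotypes. Of 6 BAG genes, Bag1 was higher on day 6 (0.46, adjusted p = 0.00029) and Bag4 fell over time in WT (-0.67). Bag3, named here as the partner of HSPB8 with its values already seen, was 166 ± 11.4 CPM in WT and 177 ± 5.19 CPM in KO-labelled libraries on day 6 (SD, n = 3 each), a log2FC of 0.09 that was not called. Of 4 genes tested for heat shock factors and their binding protein Hsbp1, Hsf2 (0.35) and Hsf1 (0.31) were higher on day 6, and both fell over time in WT (-0.49 and -0.48), while Hsbp1 rose over time (0.36). Among other small heat shock genes, Hspb11 rose over time in WT (0.79). Of 19 clients and partners of the muscle chaperones, 16 were higher and 1 lower on day 6 (22.0% and 20.8% of all genes), and 18 rose in WT from day 0 to day 6 (32.6% of all genes). Actn2 (α-actinin-2 of the Z-disc) was 0.287 ± 0.0268 CPM in WT and 39.7 ± 3.47 CPM in KO-labelled libraries on day 6 (SD, n = 3 each), and Actc1 (4.17) and Myh7 (3.12) also had large log2FC.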

How the data were processed

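Poly(A) RNA-seq of 23 C2C12 libraries was analysed from tables of estimated counts and TPM per gene that the authors deposited. Per the submitters' processing notes the tools were Bowtie2 and RSEM on mm10; versions, annotation and use of strand are not given in the sources used here. The deposited expected counts were rounded (0 values changed) and tested with edgeR 4.0.16 in R 4.3.3: TMM scaling, filterByExpr (minimum count 10, minimum total 15; 14187 genes, all 10 members), a group-means model over all 23 libraries with 15 residual degrees of freedom, quasi-likelihood F-tests and Benjamini-Hochberg adjustment in each of 17 contrasts, called under 0.05. The deposited TPM served for levels between genes. Contrasts against day 0, and interactions, share day 0 libraries. The procedure was also run on simulated data with the same dispersion for every gene, no outlying library and few changed genes. That run does not show how scaling and calls behave in these data. Alternatives used DESeq2 1.42.0, limma 3.58.1, other scalings and filters, only the groups compared, a replicate block and each library left out.

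The members and lists were chosen with earlier results of these data known. Named genes are the members, Runx1, up to 3 genes per list with the largest called log2 fold change (labelled KO against WT on day 6, WT day 6 against day 0, group mean of at least 5 CPM), and the 3 tested genes per member with the most similar group means. There were 790 values with a TPM above 0 and a count of 0. Intervals and floors cover counting error only.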

Additional observations from a re-analysis of the deposited data

Results flagged for a closer look

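For 5 members the change from day 0 differed between the genotypes by an interaction term in edgeR (quasi-likelihood, adjusted p under 0.05). Values are the change in KO-labelled libraries minus that in WT on the log2 scale, and all of them share the day 0 libraries. Smyd1 had a smaller log2 rise in KO-labelled libraries, by -2.41 on day 1, -1.98 on day 3 and -1.95 on day 6. It started from 9.30 CPM there and from 0.884 CPM in WT. Hspb8 (1.23), Cryab (1.03) and Hspb2 (0.95) had positive values on day 6. Hspa8, which fell in both genotypes, fell less in KO-labelled libraries, by 0.45 on day 3 and 0.29 on day 6.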

How the results depend on the processing

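In 140 contrasts of members at least as large as their standard error, the 9 other settings left 1185 calls and directions as they were, added 33 calls, removed 29 and reversed 2. Leaving out 1 library left 3148, added 26, removed 45 and reversed 1. The reversals were Cryab in WT on day 6 against day 0, at 0.0151 with limma on log2(TPM + 1) and on log2(TPM + 0.1), and Hsp90aa1 on day 3 against day 1 in KO-labelled libraries, at 0.0717 without replicate 2 of that day 1 group (range -0.25 to 0.0717); neither was called. Members called on day 6 between genotypes numbered 7 to 8 under the other settings, the 7 with a mean count of at least 50, which left Hspb3 untested. The interaction counts moved with limma: 2 on day 1 on log2(TPM + 0.1) (1 to 2 with a library left out), 4 on day 3 on log2(TPM + 1) (2 to 3) and 8 on day 6 on log2(TPM + 1) (4 to 6); the cause was not tested. The WT count from day 3 to day 6 ran from 1 to 4 with a library left out. Same-numbered libraries did not deviate together (mean correlation 0.05, 0.00, 0.02 and -0.09 on days 0, 1, 3 and 6), so the numbers were not taken as pairs. With a replicate block that WT count was 1, Hspb3 on day 3 between genotypes was called (1.09, adjusted p = 0.0452), and Hspa8 lost its WT day 3 to day 6 call (-0.21, adjusted p = 0.0523) and its day 6 interaction (0.29, adjusted p = 0.0695); the block changed no other call followed here. In WT day 6 against day 0 the median of all genes was 0.05, 0.13 with library size only, and 0.15 and 0.20 with limma on log2(TPM + 1) and log2(TPM + 0.1). Depth limited Hspb3 on days 0 and 1 and Unc45b on day 0, so that the interactions of Unc45b and Hspb3 could not be determined on any day.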
